A study of Mus musculus with 4 samples.

Results

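The factors of nonsense-mediated mRNA decay (NMD) were examined in splenic follicular B (FOB) cells with and without hnRNP F, an RNA-binding protein that binds runs of G in pre-mRNA and regulates splicing. The 9 factors were chosen by gene symbol (Upf1, Upf2, Upf3a, Upf3b, Smg1, Smg5, Smg6, Smg8 and Smg9), and each was found once among the 55401 genes of the count table. None of the 1556 events of the splicing table belongs to any of the 9. The series holds RNA-seq of 2 WT and 2 Hnrnpf bKO libraries of FOB cells sorted as B220+, CD93-, CD23 high and CD21 low from the spleens of C57BL/6 mice aged 7 weeks by the labels. WT and Hnrnpf bKO mice both carried the floxed Hnrnpf alleles (fl/fl), and Hnrnpf bKO mice carried in addition a knocked-in Cre recombinase that is active in the B lineage, so that the presence of the Cre allele came with the deletion of Hnrnpf exon 4 and cannot be told apart from it. The libraries came from 1 experiment, and the sources used here do not say whether mice were pooled.

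NMD removes mRNAs on which translation ends at a premature stop codon, and the splicing of pre-mRNA is a main source of such mRNAs, through skipped exons that shift the reading frame and through retained introns. UPF1, an RNA helicase, is recruited to the terminating ribosome, where UPF2 and UPF3B join it to an exon junction complex left downstream of the stop codon. The kinase SMG1, held in a complex with SMG8 and SMG9, phosphorylates UPF1, after which SMG6 cleaves the mRNA and SMG5 helps to recruit the enzymes of decapping and deadenylation. Several NMD factor mRNAs are themselves known targets of the pathway, and UPF3A, the paralog of UPF3B, has been described as a weak activator or an antagonist of it. B lymphocytes rely on NMD for the transcripts of immunoglobulin genes rearranged out of frame.

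The libraries held between 15698567 and 18908963 counts. Hnrnpf had 5780 and 6634 counts in WT against 1167 and 1194 in Hnrnpf bKO, so that 20.1% of its WT level remained and the labels matched the targeted gene. The B cell and sort markers Ptprc, Cd79a, Cd79b, Ms4a1 and Fcer2a were abundant in each library, with at least 12391 counts. Of these, Ms4a1 fell by 0.29 on the log2 scale (adjusted p = 0.00240) and Fcer2a, which encodes CD23, rose by 0.22 (adjusted p = 0.0180) in Hnrnpf bKO. Cd93, which the sort excludes, had 138 and 222 counts in WT against 261 and 354 in Hnrnpf bKO, and Cr2 had 17733 and 17145 against 11268 and 12796. On the log2 scale Cd93 rose by 0.85 (edgeR adjusted p = 0.00661) and Cr2 changed by −0.47 (edgeR adjusted p = 0.00140). Summed over 3 neutrophil markers, the FPKM values were 8.79 and 12.8 in WT against 22.0 and 35.1 in Hnrnpf bKO, mostly from S100a8 and S100a9, while Ly6g had 1 to 13 counts. S100a8 rose by 1.53 (edgeR adjusted p = 0.00552) and S100a9 by 1.34 (edgeR adjusted p = 0.00808) on the log2 scale, and Ly6g was not tested. The sums over 5 T cell markers (6.54 and 9.57 against 5.33 and 8.01), 3 macrophage and monocyte markers (3.82 and 6.32 against 5 and 7.71), 3 plasma cell markers (5.71 and 9.37 against 8.34 and 9.40) and 2 erythroid markers (3.98 and 1.87 against 2.43 and 1.56) overlapped between the groups, and no marker was at 0 in every library. The part of these markers and cells in the values of the NMD factors was not tested, and in sorted bulk RNA a change in the share of a cell type cannot be told apart from a change in RNA per cell. Xist had between 30322 and 33674 counts in the 4 libraries and Ddx3y had 0, so that the libraries were alike in these sex-linked genes, Upf3b being X-linked too.

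Each of the 9 NMD factors was expressed in FOB cells, and their levels ran from 7.21 to 51.3 FPKM. Levels were compared per length, as the deposited FPKM (fragments per kilobase of exonic gene size, scaled to the library total). Upf1 was the highest, with 51.3 and 49.7 FPKM in WT against 48.0 and 51.2 in Hnrnpf bKO, and exceeded 93.1% of the tested genes. Smg1, the kinase that acts on UPF1, followed at 45.01 and 39.3 FPKM in WT against 38.5 and 41.2 in Hnrnpf bKO. Smg5, an adaptor of phosphorylated UPF1, was the third at 27.3 and 29.2 against 25.6 and 27.0 FPKM. The ranges of these 3 factors did not overlap.

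**Figure D1:**
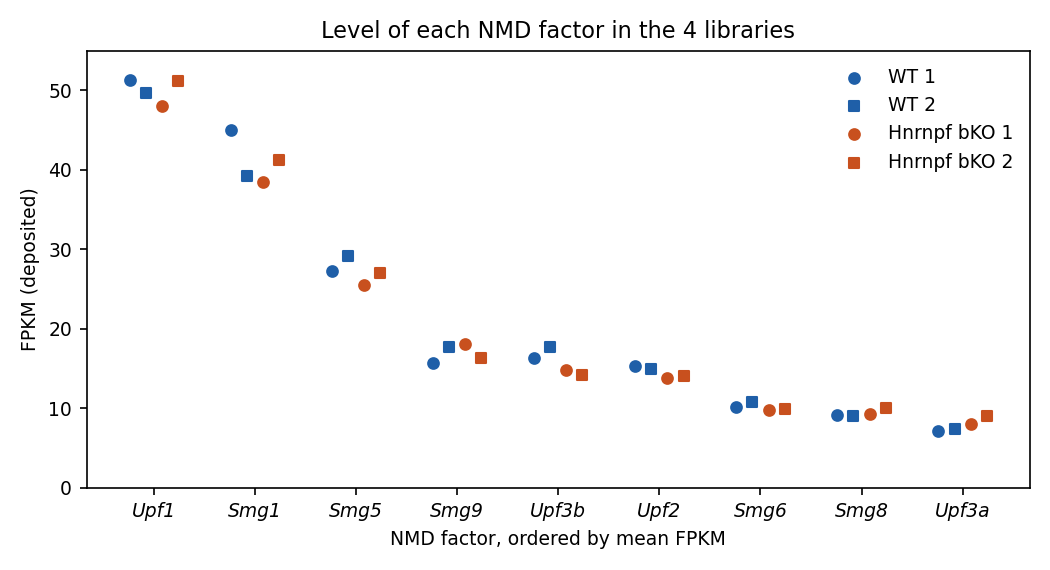
FPKM (vertical axis, deposited values) of each of the 9 NMD factors in the 4 libraries, with WT in blue and Hnrnpf bKO in orange and the replicate number given by the symbol. The factors range from 7.21 FPKM for Upf3a in WT 1 to 51.3 for Upf1 in WT 1, and the points of Smg9, Upf3b and Upf2 overlap between neighbours, as do those of Smg6 and Smg8.

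Smg9, Upf3b and Upf2 formed a middle group in which neighbours overlapped. Smg9, a subunit of the SMG1 complex, lay between 15.72 and 18.1 FPKM, Upf3b between 14.2 and 17.7, and Upf2, which bridges UPF1 and the UPF3 proteins, between 13.9 and 15.3. The SMG6 endonuclease gene lay lower, between 9.81 and 10.8 FPKM, and overlapped with Smg8 at 9.09 to 10.1. Upf3a was lowest, with 7.21 and 7.37 FPKM in WT against 7.98 and 8.99 in Hnrnpf bKO. The mean FPKM of Upf1 was 6.35 times that of Upf3a, and Upf3a still exceeded 56.5% of the tested genes. The order rests on the length used. In an alternative chosen after seeing the data, in which the length of the main annotated transcript replaced the exonic gene size (every annotated exon pooled), Smg1 came before Upf1 (63.2 against 50.1 on the same scale), Upf3a moved from last to the sixth place at 22.5 and Smg8 became lowest at 9.41. For Upf3a the exonic gene size is 5865 bases and the main transcript 2057 bases.

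To examine whether the NMD factors changed with the loss of hnRNP F, all 14123 genes past the low-count filter were fitted with edgeR (quasi-likelihood test, p adjusted by the Benjamini-Hochberg method). None of the 9 factors passed an adjusted p of 0.05, while 6.97% of the tested genes passed it and 0.899% also reached a fold change of 2. At an unadjusted p under 0.05 there were 2 of the 9, Upf3a and Upf3b, against 20.3% of the tested genes, and 0 of the 9 without Hnrnpf bKO replicate 2. DESeq2 also called 0 of the 9 after adjustment and had 1 at an unadjusted p under 0.05. The estimates of 6 factors were lower in Hnrnpf bKO and those of 3 higher, with a median log2 fold change of −0.07 against −0.00229 over all tested genes. The libraries of the groups did not overlap for 6 of the 9, against 50.1% of the tested genes. These shares include genes with few counts. Of the 6916 tested genes averaging 400 counts or more, as all 9 factors do, 3829 had groups that did not overlap. In the same set, 1765 had an unadjusted p under 0.05 by edgeR, and 386 rose and 301 fell at an adjusted p of 0.05. With 522.75 to 16956.75 counts on average, the factors had standard errors between 0.05 and 0.09 on the log2 scale. Over the 9 factors, the 95% intervals of the fold change, taken from the edgeR fit, ran from 0.769 to 1.33, so that changes of 2-fold lay outside each of them.

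**Figure D2:**
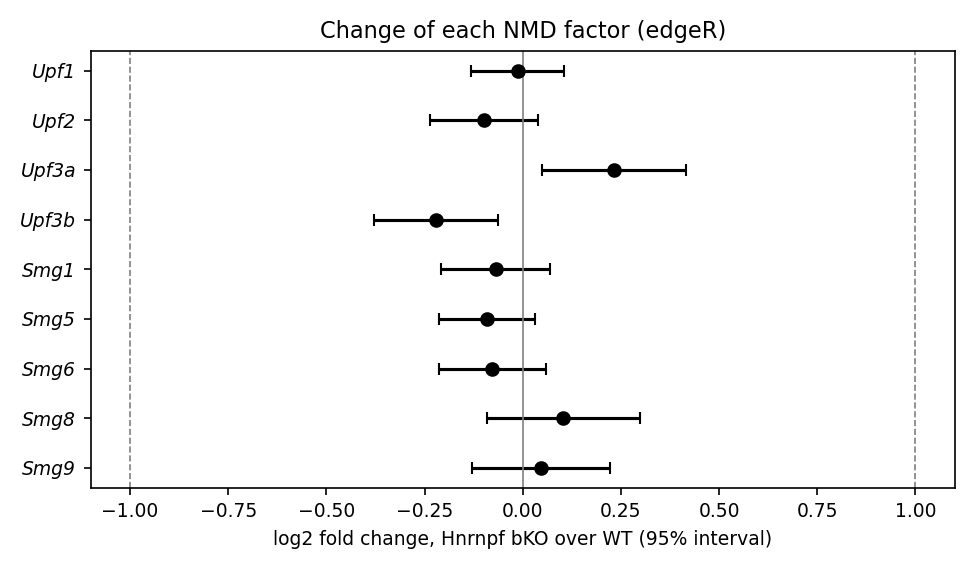
Log2 fold change of each NMD factor in Hnrnpf bKO over WT (horizontal axis) with its 95% interval from edgeR's quasi-likelihood fit (n = 2 libraries per group), with dashed lines at a 2-fold change. The 9 estimates lie between −0.22 for Upf3b and 0.23 for Upf3a, and no interval comes near the dashed lines.

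Upf1 (chromosome 8 of GRCm38 from 70331525 to 70353278, minus strand), the central helicase, had the smallest standard error and the estimate nearest to 0. It had 3873 and 4342 counts in WT against 3482 and 4273 in Hnrnpf bKO, or 237 and 228 against 222 and 239 CPM (counts scaled to the TMM-adjusted library size). The groups overlapped, and the log2 fold change was −0.01 ± 0.05 (SE, 95% interval −0.13 to 0.10, adjusted p = 0.929). Its sign turned when WT replicate 1 (0.01) or Hnrnpf bKO replicate 1 (0.04) was left out. Upf2 (chromosome 2 from 5951469 to 6056703, plus strand) had 83.7 and 81.2 CPM in WT against 76.0 and 78.0 in Hnrnpf bKO, which do not overlap. The log2 fold change of Upf2 was −0.10 ± 0.06 (SE, 95% interval −0.24 to 0.04, adjusted p = 0.433).

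The UPF3 paralogs had the estimates farthest from 0 among the 9 factors, in opposite directions, and neither passed the adjusted threshold. Upf3b, whose product binds the exon junction complex, had 1071 and 1338 counts in WT against 934 and 1023 in Hnrnpf bKO, or 65.5 and 70.3 against 59.6 and 57.1 CPM. Both Hnrnpf bKO libraries lay below both WT libraries, and the mean was 67.9 ± 3.43 CPM in WT against 58.3 ± 1.75 in Hnrnpf bKO (SD, n = 2). The log2 fold change of Upf3b was −0.22 ± 0.07 (SE, 95% interval −0.38 to −0.06, adjusted p = 0.0963). With DESeq2 the adjusted p for Upf3b was 0.330. The estimate for Upf3b was −0.27 without WT replicate 1 and −0.16 without WT replicate 2. It was −0.25 without Hnrnpf bKO replicate 1 and −0.19 without Hnrnpf bKO replicate 2. Upf3a had 692 and 817 counts in WT against 735 and 953 in Hnrnpf bKO, or 42.3 and 42.9 against 46.9 and 53.2 CPM. Both Hnrnpf bKO libraries lay above both WT libraries, with Hnrnpf bKO replicate 2 the highest, and the mean was 42.6 ± 0.448 CPM in WT against 50.04 ± 4.46 in Hnrnpf bKO (SD, n = 2). The log2 fold change of Upf3a was 0.23 ± 0.08 (SE, 95% interval 0.05 to 0.41, adjusted p = 0.129). Without Hnrnpf bKO replicate 2 the estimate for Upf3a was 0.14 (adjusted p = 0.611), and without Hnrnpf bKO replicate 1 it was 0.32 (adjusted p = 0.0912).

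**Figure D3:**
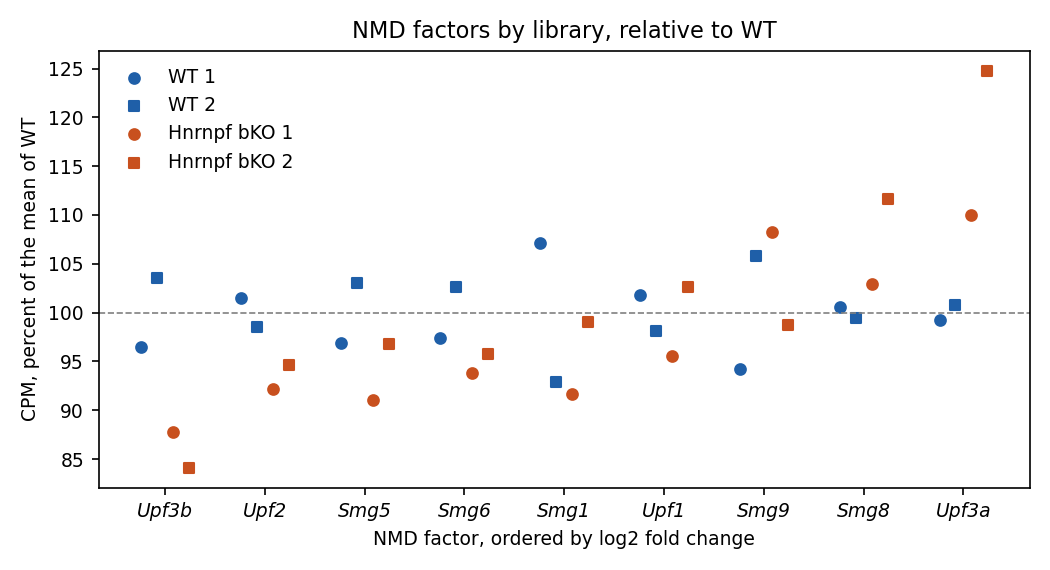
CPM of each NMD factor in each library as a percentage of the mean of the WT libraries (vertical axis, not starting at 0), with WT in blue, Hnrnpf bKO in orange and factors ordered by log2 fold change. Upf3b at the left has both Hnrnpf bKO libraries lowest, Upf3a at the right has both highest, and Smg1, Upf1 and Smg9 in between have groups that overlap.

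Because the paralogs share a library, their ratio does not depend on library size. Per kilobase of exonic gene size, Upf3b was 2.27 and 2.40 times Upf3a in the WT libraries and 1.86 and 1.57 times in the Hnrnpf bKO libraries. The groups did not overlap, which follows from the opposite directions of the paralogs given above and is not a separate result. The mean ratio was 2.34 ± 0.0934 in WT and 1.72 ± 0.205 in Hnrnpf bKO (SD, n = 2). The log2 of the ratio differed by −0.45, with a two-sided exact permutation p of 0.333, the smallest that 2 libraries against 2 can give. This p follows from the lack of overlap and adds nothing to it. Upf3a took 39.3% and 37.9% of the counts of the pair in WT and 44.0% and 48.2% in Hnrnpf bKO. With the lengths of the main transcripts, the ratio was 1.36 and 1.44 in WT against 1.12 and 0.942 in Hnrnpf bKO, and the difference between the genotypes is unaffected by the length.

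**Figure D4:**
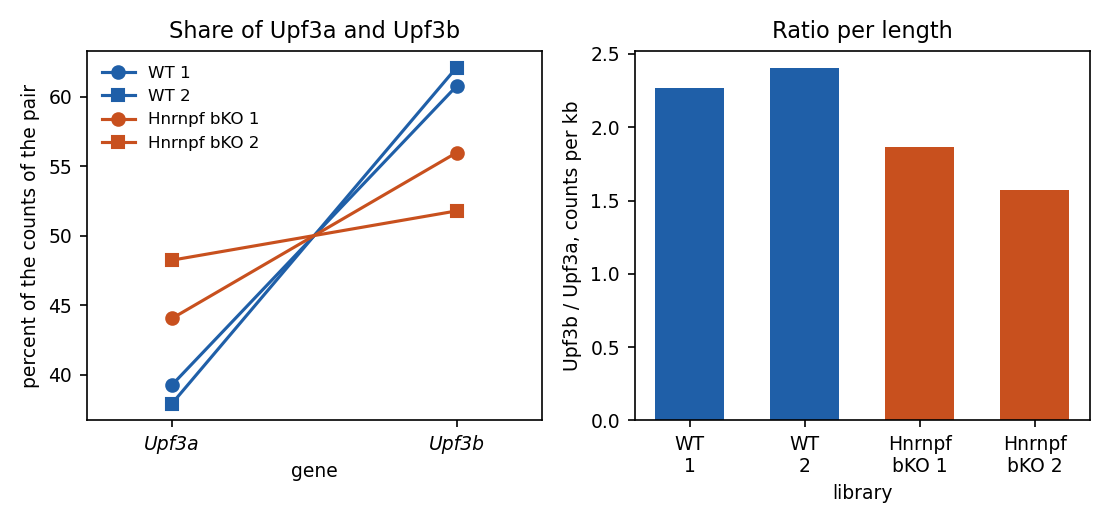
Left, the share of Upf3a and of Upf3b in the summed counts of the pair (vertical axis, percent, not starting at 0), 1 line per library. Right, the ratio of Upf3b to Upf3a in counts per kilobase of exonic gene size, 1 bar per library, at 2.27 and 2.40 in WT against 1.86 and 1.57 in Hnrnpf bKO.

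The comparison of the paralogs rests on the assignment of reads to either gene, so the most similar part of their coding sequences is shown here. Upf3a (ENSMUSG00000038398, chromosome 8 of GRCm38 from 13785615 to 13799193, plus strand) and Upf3b (ENSMUSG00000036572, chromosome X from 37091678 to 37110322, minus strand) have 1266 and 1416 coding bases in their main GENCODE transcripts, of which 65.8% of the 1167 aligned bases are identical. The most similar stretch of 120 aligned coding bases spans exons 2, 3 and 4 in each gene, with the exon 3 part at chr8:13787365-13787471 in Upf3a and at chrX:37108915-37109021 in Upf3b. It has 92 identical bases, and its 28 differing bases are in capitals below. It starts with the longest run shared by any annotated transcripts of both genes, 15 bases.
Upf3a: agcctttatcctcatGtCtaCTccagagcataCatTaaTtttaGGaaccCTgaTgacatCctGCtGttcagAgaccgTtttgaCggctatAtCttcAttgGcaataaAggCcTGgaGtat
Upf3b: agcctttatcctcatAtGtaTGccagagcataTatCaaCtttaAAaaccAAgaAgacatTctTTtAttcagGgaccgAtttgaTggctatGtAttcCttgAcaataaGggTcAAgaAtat
In its part after the coding sequence, between bases 1588 and 2048 of 2057, the main Upf3a transcript has stretches of 100 to 198 bases that are at least 90% identical to transcripts of 931 other genes, so that reads from there can be hard to place. For Upf3b no such match was found.

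By the distance between centred log2 CPM profiles over the 4 libraries, the 3 genes most like Upf3b among 6196 others averaging 500 counts or more were Srebf1, P2rx4 and Myl12a (distances of 0.00739, 0.0151 and 0.0166). A profile of 4 points is shared widely, and 237 of these genes lay within a distance of 0.1. Srebf1 had a log2 fold change of −0.23 in the same test (adjusted p = 0.0345), P2rx4 −0.21 (adjusted p = 0.0958) and Myl12a −0.22 (adjusted p = 0.0859). The genes were chosen for profiles near that of Upf3b in the same libraries. Fold changes near its own therefore follow from the choice and are not a separate result.

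None of the 3 genes of the SMG1 kinase complex passed the test. Smg1 (chromosome 7 from 118131308 to 118243670, minus strand) had the most counts, 17661 and 17807 in WT against 14480 and 17879 in Hnrnpf bKO, or 1080 and 936 against 924 and 998 CPM. The WT libraries were 0.21 apart on the log2 scale, more than the log2 fold change of −0.07 between genotypes (standard error 0.06, 95% interval −0.21 to 0.07, adjusted p = 0.609). Without WT replicate 1 the estimate for Smg1 was 0.04, and without WT replicate 2 it was −0.16 (adjusted p = 0.0972). Smg8 (chromosome 11 from 87077732 to 87086774, minus strand) had 29.4 and 29.1 CPM in WT against 30.1 and 32.7 in Hnrnpf bKO, with no overlap and a log2 fold change of 0.10 ± 0.09 (SE, adjusted p = 0.577). The estimate for Smg8 was 0.04 without Hnrnpf bKO replicate 2 and 0.16 without Hnrnpf bKO replicate 1. Smg9 (chromosome 7 from 24399619 to 24422778, plus strand) had 58.2 and 65.4 CPM in WT against 66.9 and 61.0 in Hnrnpf bKO, which overlap, and a log2 fold change of 0.05 ± 0.08 (SE, adjusted p = 0.801), whose sign turned without replicate 1 of either group (−0.03 without WT replicate 1 and −0.02 without Hnrnpf bKO replicate 1).

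The effectors downstream of phosphorylated UPF1 had estimates below 0 that did not pass the test. Smg5 (chromosome 3 from 88336260 to 88362338, plus strand) had 190 and 202 CPM in WT against 178 and 189 in Hnrnpf bKO, groups that are apart by less than 1 CPM, and a log2 fold change of −0.09 ± 0.06 (SE, 95% interval −0.21 to 0.03, adjusted p = 0.407). The estimate for Smg5 was −0.04 without WT replicate 2, −0.05 without Hnrnpf bKO replicate 1 and −0.14 without Hnrnpf bKO replicate 2. Smg6 (chromosome 11 from 74925823 to 75164448, plus strand) had 86.2 and 90.8 CPM in WT against 83.1 and 84.7 in Hnrnpf bKO, which do not overlap, and a log2 fold change of −0.08 ± 0.06 (SE, 95% interval −0.21 to 0.06, adjusted p = 0.547). The estimate for Smg6 was −0.04 without WT replicate 2. Exons of Smg6 share 126 bases with Srr on the opposite strand, and those of Upf1 share 68 and 63 bases with Cers1 and Gdf1, whose reads cannot be told apart if counting did not use strand, a setting not given in the sources used here.

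In the splicing table, which lists the events the authors selected with rMATS, none of the 9 factors appears, by symbol or by gene identifier. Among the tested genes that averaged 100 counts or more, 10.6% (1048 of 9875) are listed. The 9 factors have 4 to 63 exons in their main transcripts, with a median of 19 against 9 for 11233 tested coding genes. The table is the authors' selection, so absence from it does not show that the splicing of a factor was the same in both genotypes. Of 45 genes in the other lists of the pathway, 5 are listed, with 6 events. At an average of 100 counts or more this is 5 of 40, near the 10.6% of the tested genes. The 5 were Pym1, Dcp1b and Xrn1 with an exon skipping event each, Acin1 with 2 exon skipping events and Edc4 with an alternative 3′ splice site. They were named after this listing was seen.

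Runs of at least 3 G, the element that hnRNP F binds, were counted on the coding strand of the main transcripts, since introns were not analysed here. The 9 factors had between 5.52 (Upf2) and 15.4 (Upf1) runs per kilobase of coding sequence, with a median of 10.4 against 11.6 for the tested coding genes. A window of 60 coding bases with at least 4 such runs was found in Upf1 and Smg6, and in 32.4% of the tested coding genes. These windows are shown as the densest G-run sequences of the 9 factors, with the runs in capitals. That of Upf1 lies in exon 23 (chr8:70332638-70332697, minus strand) and that of Smg6 in exon 2 (chr11:74929517-74929576, plus strand) of GRCm38.
Upf1: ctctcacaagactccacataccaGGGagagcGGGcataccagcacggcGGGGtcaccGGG
Smg6: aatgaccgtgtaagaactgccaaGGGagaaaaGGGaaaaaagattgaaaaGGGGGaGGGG
Neither gene is listed with a splicing event. Annotated transcripts of the NMD class, which carry a premature stop codon, exist for 3 of the 9 factors. These are Smg1, Smg5 and Smg6, with 1 each of the 45 transcripts annotated for the 9. Counted by gene in the same way, 29.9% of the tested coding genes have such a transcript, and 33.6% of those averaging 400 counts or more. Annotated retained-intron transcripts exist for Upf3a (2 of its 3 transcripts), Smg1 (5), Smg5 (5), Smg9 (4) and Smg6 (1), and not for Upf1, Upf2, Upf3b or Smg8. The gene-level counts separate neither class from the coding transcripts.

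The rest of the pathway was examined as 5 lists. Of 6 further NMD factors, 1 fell and none rose at an adjusted p of 0.05, against 2.83% of the tested genes that fell and 4.15% that rose. The gene that fell was Dhx34, a helicase that promotes the phosphorylation of UPF1, with 1347 and 1576 counts in WT against 1127 and 1223 in Hnrnpf bKO, or 82.4 and 82.9 against 71.9 and 68.3 CPM (log2 fold change −0.24 ± 0.07 SE, adjusted p = 0.0469). The call of Dhx34 was lost when any 1 library was left out (adjusted p between 0.0926 and 0.210), with the replicate number as a block (adjusted p = 0.106) and with DESeq2 (adjusted p = 0.170), out of a range of 0.0245 to 0.228 over 12 alternatives. The highest estimate of this list was that of Ruvbl1, an ATPase, at 0.15 (adjusted p = 0.299). The median of the list was 0.08, against −0.00229 over all tested genes.

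Of 12 genes of the exon junction complex and its partners, none passed the edgeR test, and none was below an unadjusted p of 0.05. Estimates were above 0 for 11 of the 12 and below 0 for 1, against 6999 of the 14123 tested genes above 0. The median log2 fold change of the 12 was 0.03, from −0.03 for Rbm8a, which turned sign without replicate 2 of either group, to 0.37 for Magohb, which had 57 to 83 counts (adjusted p = 0.448). The release factor genes Etf1 and Gspt1 had log2 fold changes of −0.07 and −0.09 (adjusted p = 0.568 and 0.455), and Gspt2 had 0 counts in each library, which allows up to 0.191 CPM. Of 11 genes of decapping and decay, none passed after adjustment and 3 were below an unadjusted p of 0.05, against 20.3% of the tested genes. The estimates ran from −0.12 for Ddx6, a decapping-associated helicase with 9094 to 11951 counts (adjusted p = 0.170), to 0.17 for Edc3, an enhancer of decapping (adjusted p = 0.231). DESeq2 called 0 genes of these lists.

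Of 13 known target transcripts of NMD, 11 were tested, 1 fell and none rose, against 2.83% and 4.15% of all tested genes. Of these 11, 8 had estimates below 0, against 7124 of the 14123 tested genes, and the median log2 fold change was −0.11, against −0.00229 over all tested genes. Atf4, a transcription factor of the stress response whose mRNA carries upstream reading frames, had 3621 and 3953 counts in WT against 2907 and 3368 in Hnrnpf bKO, or 221 and 208 against 185 and 188 CPM. It fell by 0.20 ± 0.05 on the log2 scale (SE, adjusted p = 0.0410). The call of Atf4 was lost without WT replicate 1 (adjusted p = 0.256), Hnrnpf bKO replicate 1 (adjusted p = 0.160) or Hnrnpf bKO replicate 2 (adjusted p = 0.0802), with the replicate number as a block (adjusted p = 0.112) and with DESeq2 (adjusted p = 0.0791), out of a range of 0.0111 to 0.256 over 12 alternatives. Gas5, a snoRNA host transcript, had 195 and 203 CPM in WT against 217 and 223 in Hnrnpf bKO. Its estimate was 0.14 on the log2 scale (edgeR adjusted p = 0.130). The other snoRNA host transcripts of the list went the other way, with Zfas1 at −0.15, Snhg1 at −0.12, Snhg12 at −0.17 and Snhg15 at −0.11. None of these host transcripts passed the edgeR test, and all were named after their values were seen. Cdkn1a had the highest estimate at 0.52, with 12 to 21 counts (adjusted p = 0.578). Upp1 had 0 counts in each library and Atf3 5 to 9, and neither was tested. Of the 51 tested genes of the 9 factors and these lists, none reached a fold change of 2. Such changes were rare everywhere. With an adjusted p of at most 0.05, 127 of the 14123 tested genes reached it, and 9 of the 6916 averaging 400 counts or more.

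**Figure D5:**
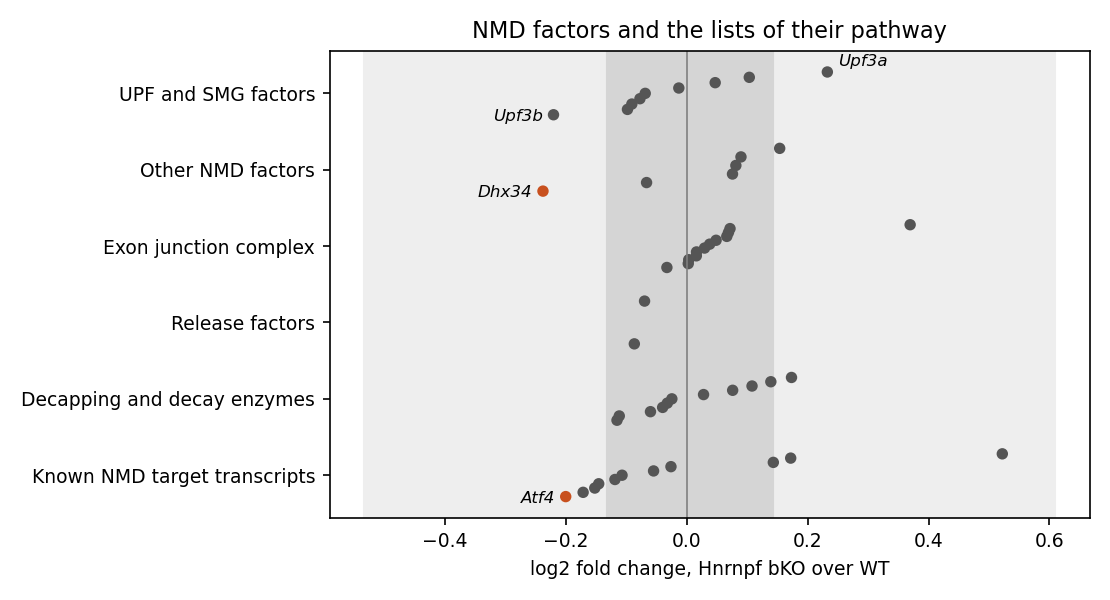
Log2 fold change in Hnrnpf bKO over WT (horizontal axis) of each tested gene of the 9 UPF and SMG factors and of 5 lists of their pathway, 1 point per gene, with genes at an adjusted p of at most 0.05 by edgeR's quasi-likelihood test in orange. The dark band runs from the 25th to the 75th percentile of all tested genes (−0.13 to 0.14) and the light band runs from the 5th to the 95th percentile (−0.53 to 0.61). Dhx34 and Atf4 are the points in orange, at −0.24 and −0.20.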

How the data were processed

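RNA of sorted FOB cells from 2 WT and 2 Hnrnpf bKO samples was sequenced after poly(A) selection, and the labels give genotype and replicate number. The authors trimmed the reads with Cutadapt 1.9.1, aligned them to GRCm38 with HISAT2 2.0.1 and counted them per gene with HTSeq 0.6.1 (versions from the submitters' processing notes and the paper). The deposited counts are whole numbers per gene and library without normalization. The deposited FPKM equal these counts divided by exonic gene size and library total, as the authors scaled them. The authors' splicing table, made with rMATS, was used for the genes and event types it lists, and its inclusion level differences and FDR were not used, being the authors' own comparison.

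Counts were compared with edgeR 4.0.16 in R 4.3.3 (TMM, filterByExpr, quasi-likelihood F test, Benjamini-Hochberg adjustment over 14123 genes). CPM values use TMM-scaled library sizes. DESeq2 1.42.0 (the paper's methods name DESeq2 in another version), RLE size factors, other filters, limma-trend fits (limma 3.58.1) of log2(FPKM + 0.1) or log2(FPKM + 1), the replicate number as a block and each library left out were alternatives. With a library left out, the lone library of its group was assumed to vary like the other group. The scripts were tested on simulated data. Genes named were the 9 factors, Hnrnpf, and from each pathway list the genes that passed and the highest and lowest estimates. The factors and lists were chosen with earlier results of these data known, and some genes are not reported here. The libraries are not stated to come from separate mice, so p-values measure the spread between these samples. Libraries within a group differed by more than counting noise alone, since chi-square over degrees of freedom was 4.30 between the WT and 3.86 between the Hnrnpf bKO libraries. This cannot show whether they came from separate RNA or separate mice. Transcripts and exons are those of GENCODE M21 (GRCm38), aligned with Biopython 1.88 and searched with blastn 2.17.0.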

Additional observations from a re-analysis of the deposited data

How the results depend on the processing

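Of 108 values of the 9 NMD factors under 12 alternatives each, 103 kept their direction, none passed an adjusted p of 0.05, and 5 turned sign, each with a library left out. These were Upf1 (−0.066 to 0.038 with a library left out, 0.0145 without WT replicate 1), Smg1 (−0.165 to 0.0389) and Smg9 (−0.032 to 0.138, −0.0184 without Hnrnpf bKO replicate 1). Of the genes of the other lists that passed or had the highest or lowest estimate, the sign turned for Rbm8a (−0.108 to 0.0542, 0.0262 without Hnrnpf bKO replicate 2). Of the other pathway lists, 2 genes passed, against 0 with DESeq2, the 3 limma fits or the replicate block and 0 to 1 with a library left out. Over all genes, 985 passed, against 1470 with no filter on low counts, 1042 with at least 10 counts in every library and 989 with RLE size factors. Fewer passed with DESeq2 (617) and the replicate block (612). With limma, 45 and 41 passed on log2(FPKM + 0.1) and log2(FPKM + 1), and 1 without the filter on FPKM. With a 2-fold change 127 passed, against 76 with DESeq2, 217 with no filter on low counts and 22, 19 and 1 with the same limma fits. Hnrnpf kept its change (−2.32), with an adjusted p of 0.0509 in limma without the filter. Same-numbered libraries did not deviate together over the tested genes (correlation −0.0706). With 2 libraries per group, this cannot show whether the samples were prepared as pairs. The replicate block called none of the 9 factors. The WT ratio of Upf3b to Upf3a per length was 2.34, and 1.40 with main transcript lengths, an alternative chosen after seeing the data. At 2 libraries per group, differences in these factors of the size of their standard errors, 0.05 to 0.09, cannot be resolved. Larger estimates were not resolved either, since Upf3a at 0.23 ± 0.08 and Upf3b at −0.22 ± 0.07 (SE) did not pass.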
